A study of Mus musculus with 4 samples.

Results

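The genes described here are 48 genes of DNA replication and nucleotide synthesis, taken as the rows of the deposited table whose symbol stands on a list of replication factors. All 48 listed genes were found among the 11598 genes of that table. Ribosome-protected fragment (RPF) abundance was measured by Ribo-seq, which sequences the stretches of mRNA that ribosomes shield from RNase digestion, in leptotene and zygotene spermatocytes sorted from the testes of mice at 12 dpp. The 2 control libraries, with the genotype given as wild type, came from littermates of the animals behind the 2 *Eef1g*-cKO libraries. In *Eef1g*-cKO males, *Stra8*-GFPCre deleted exons of *Eef1g*, which encodes a subunit of translation elongation factor eEF1, in germ cells from the spermatogonial stage on. Both groups share the C57BL/6J background, the age and the sort, and the study describes the libraries of a group as independent biological replicates. The comparison asks how the RPF abundance of replication genes differs between *Eef1g*-cKO and control cells.

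As background, the origin recognition complex marks replication origins, where CDC6 and CDT1 load the MCM helicase onto DNA. CDC45 and the GINS complex then activate the helicase, polymerase alpha-primase lays down primers, and polymerases delta and epsilon copy the strands from deoxynucleotides made by ribonucleotide reductase and its partner enzymes. In the male germ line, spermatogonia replicate DNA at each mitotic division, and preleptotene cells pass through the last S phase before recombination begins in leptotene.

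Control 1 and control 2 held 2479504 and 1384282 gene reads, and *Eef1g*-cKO 1 and *Eef1g*-cKO 2 held 223906 and 407979. The replication genes took 22322 and 15967 of the control reads, against 1484 and 2642 of the *Eef1g*-cKO reads. Per replication gene, the median was 236.5 and 153 reads in control against 18 and 33.5 in *Eef1g*-cKO, so precision was set by the *Eef1g*-cKO side. RPF abundance is given as FPKM, the number of reads per kilobase of a gene in every 1000000 gene reads of the library. A single read on a gene of 1 kb stood for 0.403 and 0.722 FPKM in control, but for 4.47 and 2.45 FPKM in *Eef1g*-cKO. Intervals given below are 95% intervals of read ratios and cover counting error only, since PCR reads are not independent molecules. Across the 48 genes, Spearman's rho between the libraries of a group was 0.979 in control and 0.943 in *Eef1g*-cKO, as a description over genes that are not independent replicates.

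*Eef1g* itself had 27.6 and 26.8 FPKM in control and 0 and 6.26 FPKM in *Eef1g*-cKO, from 107 and 58 reads against 0 and 4 reads. Both *Eef1g*-cKO libraries lay below both control libraries. The log2 fold change was −3.39 (SE 0.91), with an adjusted p of 0.0731 by limma, 0.0078 by edgeR and 0.05003 by DESeq2. It was −4.82 without *Eef1g*-cKO 2, which leaves the library at 0 reads, and −1.96 without *Eef1g*-cKO 1.

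As a share of each library, the replication genes together took 9003 and 11535 of every 1000000 reads in control, against 6628 and 6476 in *Eef1g*-cKO, so both *Eef1g*-cKO libraries were below both control libraries. In bulk RPF libraries such as these, fewer cells of a type, less RNA per cell and fewer ribosomes per RNA cannot be told apart. Among single genes, *Mcm2*, *Pold1*, *Dut*, *Tk1*, *Rrm1*, *Pola2*, *Fen1*, *Lig1* and *Cdc6* fell. These 9 of 48 were called decreased by limma, which required an adjusted p under 0.05 and a log2 value below −1, beside 4.97% of the 10475 genes tested. By the same rule limma called 0 of 48 increased, beside 2.87% of all genes. At an unadjusted p, limma called 15 of 48 decreased, beside 16.3% of all genes, and 1 of 48 increased, *Orc4*, beside 7.32%. In 30 of 48 genes both *Eef1g*-cKO libraries lay below both control libraries, beside 37.7% of all genes, and in 8 of 48 both lay above, beside 24.6%. An exact permutation test of 2 libraries against 2 cannot give a two-sided p below 0.333, so no single gene was tested that way.

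The median log2 fold change was −0.52 over the 48 genes and −0.23 over all genes tested, a difference of −0.28. The quartiles of the replication genes ran from −1.14 to −0.00, against −0.96 to 0.41 for all genes. Of the 48, 36 (75%) were below 0, beside 59.1% of all genes, and 32 were below the all-gene median. Fold changes below are as fitted, and where a value relative to the all-gene median is given, it has had −0.23 subtracted. Centring each library on its median changed the balance of calls over the whole table. Decreases made up 69.0% of the unadjusted calls before centring and 53.8% after, and 63.4% of the adjusted calls before and 42.4% after. Among the replication genes, centring left 9 decreased and 1 increased at an unadjusted p, beside 12.8% and 11.0% of all genes, and *Mcm3*, *Mcm4*, *Pole2*, *Lig1*, *Rrm1* and *Tyms* were lost. At an adjusted p it left 4 decreased, *Mcm2*, *Pold1*, *Dut* and *Tk1*, and 1 increased, *Orc4*, beside 3.66% and 4.97%.

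On recovered reads, edgeR called 11 of 48 decreased and 1 increased at an adjusted p, beside 11.2% and 8.75% of the genes it tested. DESeq2 called 9 decreased and 1 increased, beside 3.89% and 4.33% of the 11598 genes in the table, some of which had no DESeq2 adjusted p. The limma counts changed with the libraries and settings used. Without control 1 or without control 2, limma called 0 replication genes and 0 genes of the whole table decreased at an adjusted p. Without control 2, the median log2 fold change of the replication genes was −0.42, beside −0.22 over all genes. The adjusted count was also 0 with a prior variance without a trend and with reads thinned to the shallowest library, and 1 with a pseudocount of 0.1 FPKM. Without *Eef1g*-cKO 1 it was 7, of which 5 were among the 9, while the whole table had 1086 decreased in that fit against 521 with all libraries.

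**Figure D1:**
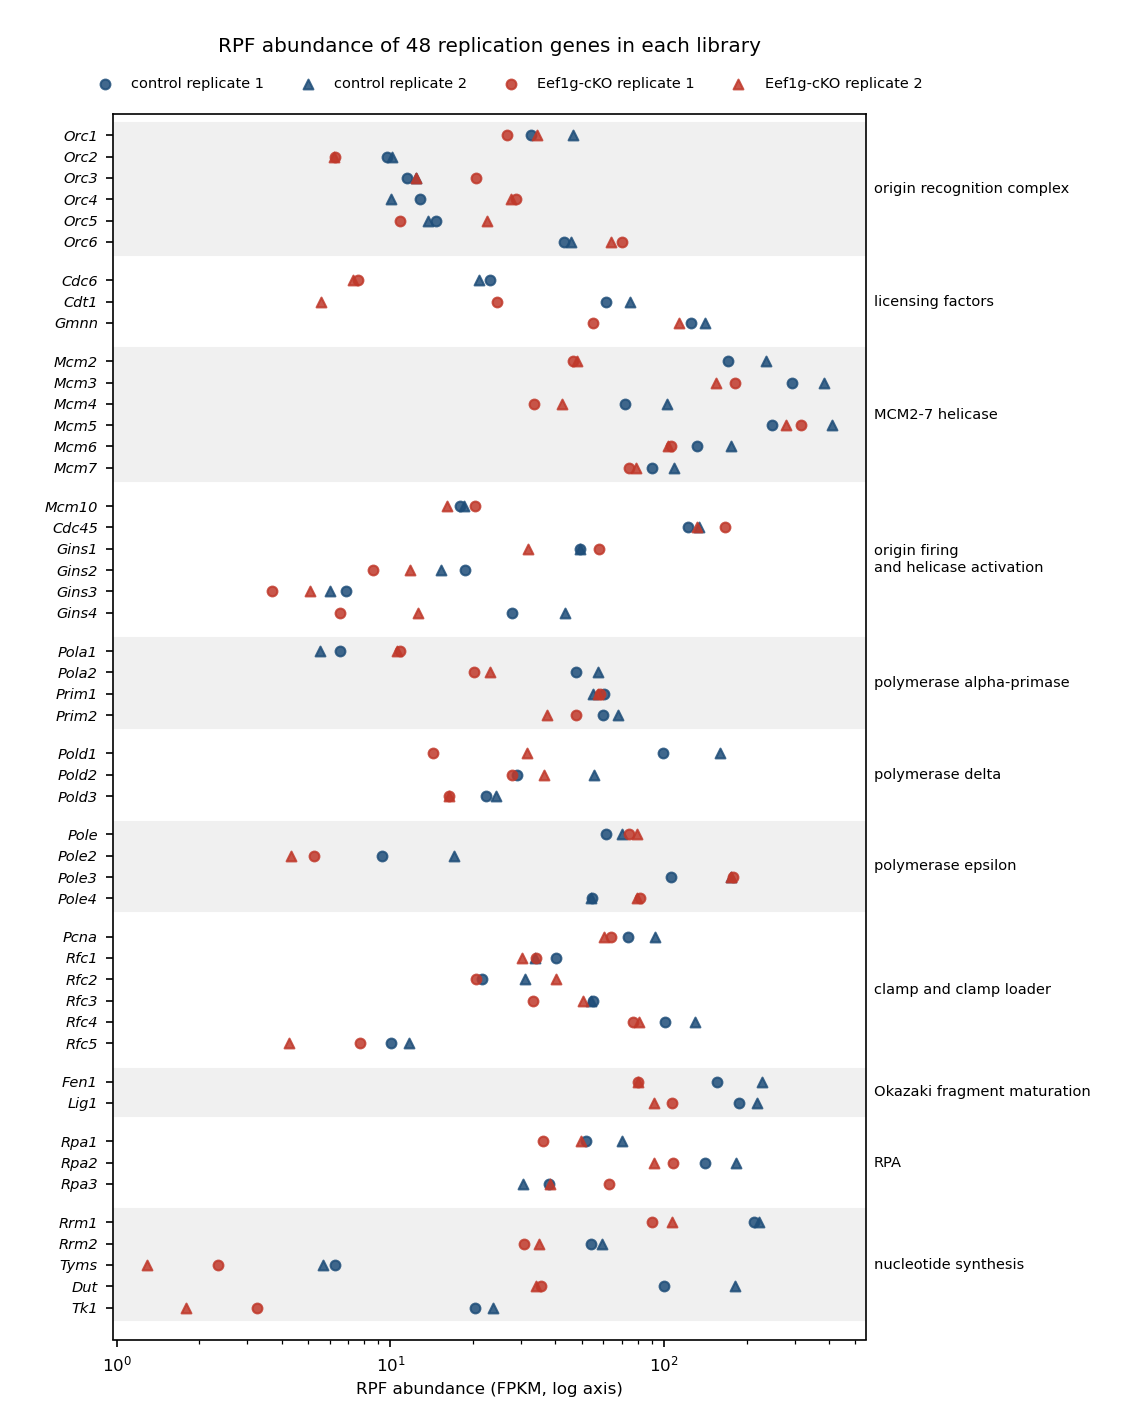
RPF abundance (FPKM, log axis) of each of the 48 replication genes in the 4 libraries, ordered by role, with 1 point per library. *Mcm2* and *Pold1* show all *Eef1g*-cKO points far to the left of the control points, *Mcm5* shows mixed points, and *Orc4* shows the *Eef1g*-cKO points to the right.

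Among markers of the sorted stage and of other cells, some lists were higher in *Eef1g*-cKO, some were lower and others overlapped. All 12 of 12 leptotene and zygotene markers were measured and none was at 0 in any library. They summed to 1956 and 1587 FPKM in control and 4508 and 4057 FPKM in *Eef1g*-cKO. The most abundant was *Sycp3*, a synaptonemal complex protein, and 5 of 12 rose at a limma adjusted p (*Hormad1*, *Meiob*, *Smc1b*, *Sycp3* and *Dmc1*), beside 2.87% of all genes. All 12 of 12 spermatogonial markers were measured, summing to 1910 and 2350 FPKM in control and 626 and 630 FPKM in *Eef1g*-cKO. *Uchl1* was the most abundant of them in control and *Rhox13* in *Eef1g*-cKO, and 6 of 12 fell (*Crabp1*, *Uchl1*, *Kit*, *Sohlh1*, *Zbtb16* and *Dmrt1*), beside 4.97%. *Rhox13* had 136 and 210 FPKM in control and 313 and 319 FPKM in *Eef1g*-cKO, higher without overlap, and did not pass (log2 fold change 0.90, limma adjusted p = 0.0842). *Gfra1* and *Nanos3* were at 0 in *Eef1g*-cKO 1, and *Etv5* was at 0 in *Eef1g*-cKO 2. Preleptotene markers, 5 of 6 measured, summed to 583 and 713 FPKM in control and 447 and 405 FPKM in *Eef1g*-cKO. None was at 0. The most abundant was *Stra8* in control 1, *Dmrtb1* in control 2 and *Ccnb3* in both *Eef1g*-cKO libraries. *Cdca5*, *Dmrtb1* and *Stra8* fell at a limma adjusted p, beside 4.97% of all genes, while *Ccnb3* rose, beside 2.87%. The part of these stage markers in the replication gene result was not tested.

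Genes of mitosis, 6 of 6 measured and none at 0, summed to 404 and 414 FPKM in control and 308 and 298 FPKM in *Eef1g*-cKO. At a limma adjusted p, *Aurkb*, *Ccnb1* and *Plk1* fell, beside 4.97% of all genes, and *Bub1* rose, beside 2.87%. The most abundant was *Cenpf* in control 1, *Plk1* in control 2 and *Bub1* in both *Eef1g*-cKO libraries. Pachytene markers, 6 of 8 measured, summed to 434 and 336 FPKM in control and 1506 and 1401 FPKM in *Eef1g*-cKO, nearly all from the histone gene *Hist1h1t*. Without *Hist1h1t* they summed to 45.7 and 34.9 against 47.3 and 47.5 FPKM, with *Adam2* at 0 in *Eef1g*-cKO 1. *Hist1h1t* rose at an adjusted p, beside 2.87% of all genes. *Piwil1*, at 8.18 and 2.93 against 1.13 and 1.24 FPKM, passed as decreased at an unadjusted p, beside 16.3%. Sertoli markers, 8 of 9 measured, summed to 832 and 323 FPKM in control and 438 and 355 FPKM in *Eef1g*-cKO, with *Ctsl* most abundant except in control 1, where *Clu* stood at 458 FPKM. Without *Ctsl* they summed to 558 and 131 FPKM in control and 128 and 83.4 FPKM in *Eef1g*-cKO. *Cldn11* and *Gata4* passed as decreased at an unadjusted p, beside 16.3% of all genes. *Wt1* and *Gata4* were at 0 in *Eef1g*-cKO 1, and *Gata4* also in *Eef1g*-cKO 2. Spermatid markers, 3 of 6 measured, summed to 7.38 and 55.3 FPKM in control and 0 and 15.1 FPKM in *Eef1g*-cKO. *Tnp1* was their most abundant gene, *Prm2* was at 0 in both *Eef1g*-cKO libraries and in control 1, and *Tnp1* and *Spaca1* were at 0 in *Eef1g*-cKO 1. Peritubular markers, 2 of 4 measured with *Acta2* most abundant, summed to 34.1 and 19.4 FPKM in control and 5.21 and 17.7 FPKM in *Eef1g*-cKO, and *Myh11* was at 0 in *Eef1g*-cKO 1. Leydig markers, 3 of 5 measured, summed to 3.10 and 5.82 FPKM in control and 2.23 and 1.22 FPKM in *Eef1g*-cKO. *Cyp11a1*, the most abundant in control 2, was at 0 in both *Eef1g*-cKO libraries and in control 1, and *Hsd3b1* was at 0 in both *Eef1g*-cKO libraries. Endothelial markers, 2 of 3 measured, summed to 2.65 and 0.762 FPKM in control and 2.70 and 1.36 FPKM in *Eef1g*-cKO, with *Cdh5*, the most abundant in control, at 0 in *Eef1g*-cKO 1. Of 4 macrophage markers, 0 were in the table. The part of these lists in the result was not tested either.

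**Figure D2:**
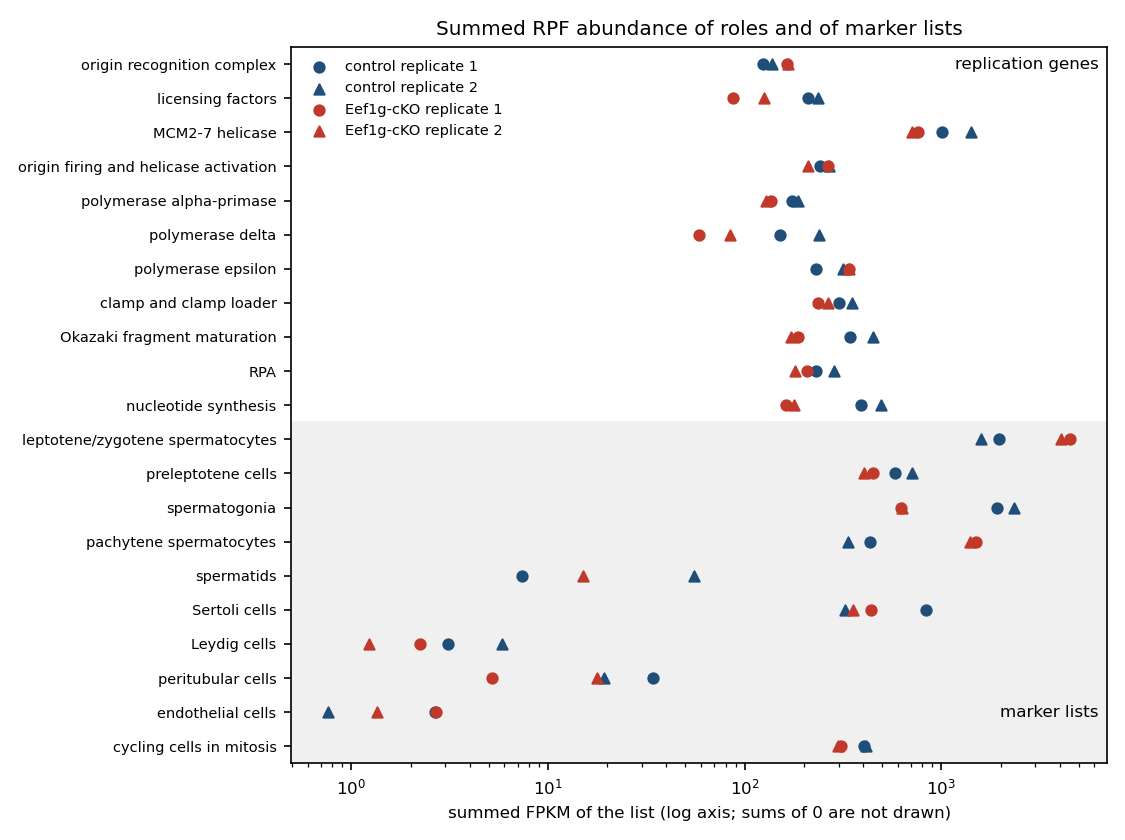
Summed RPF abundance (FPKM, log axis) of the replication genes by role and of the marker lists in each of the 4 libraries, with 1 point per library and sums of 0 not drawn. Leptotene and zygotene markers lie higher in both *Eef1g*-cKO libraries (4508 and 4057) than in control (1956 and 1587), and spermatogonial markers lie lower (626 and 630 against 1910 and 2350).

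Several members differ in how their codons end, a feature that the choice of genes did not use. The share of codons ending in G or C was 71.5% in *Mcm2*, 74.1% in *Pold1* and 75.1% in *Tk1*, which fell, and 31.9% in *Orc4*, which passed in the other direction at an unadjusted p. It was 66.3% in *Mcm5*, which did not pass the test. The first 30 codons of 4 members are shown from the GENCODE M21 coding sequences, since these genes stand at the ends of the pattern or break it. Capitals mark a G or C at the last position of a codon.
Mcm2: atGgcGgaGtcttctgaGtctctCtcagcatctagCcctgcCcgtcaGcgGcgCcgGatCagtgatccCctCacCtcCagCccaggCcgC
Pold1: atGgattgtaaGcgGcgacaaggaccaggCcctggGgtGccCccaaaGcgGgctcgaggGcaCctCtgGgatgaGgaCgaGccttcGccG
Mcm5: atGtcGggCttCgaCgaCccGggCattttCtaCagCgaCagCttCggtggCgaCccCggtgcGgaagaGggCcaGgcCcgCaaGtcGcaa
Orc4: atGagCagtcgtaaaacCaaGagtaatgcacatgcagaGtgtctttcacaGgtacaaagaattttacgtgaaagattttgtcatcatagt
Of these 30 codons, 19 end in G or C in *Mcm2*, 18 in *Pold1*, 25 in *Mcm5* and 6 in *Orc4*. Across all 48 genes, Spearman's rho between the share of codons ending in G or C and the log2 fold change was −0.42. Across the 9744 tested genes with a coding sequence it was −0.30, so a correlation of the same sign was present over the whole table. The points share the same libraries and differ in depth, and genes are not independent, so these are descriptions. The median share was 62.0% over the 15 genes called decreased at an unadjusted p and 53.9% over the other 33. It was 57.6% over all 48 and 60.2% over the tested genes with a coding sequence, so the decreased genes lay near the latter. *Gins2*, at 79.5%, did not pass the test, and *Rfc4*, at 33.5%, was below control in both *Eef1g*-cKO libraries and did not pass. The part of base composition in the fold changes was not tested beyond removing its trend in each library, an alternative chosen after seeing the data. With that trend removed, the median log2 fold change of the 48 genes was −0.64, and *Orc4* (0.58), *Fen1* (−0.88) and *Mcm3* (−0.85) were no longer called. *Rfc4* was then called at an adjusted p (−1.16, limma adjusted p = 0.0489), as were *Mcm4* and *Gins4*, and *Gmnn* (−1.19) and *Orc2* (−1.13) passed at an unadjusted p. Of the 9 decreased at an adjusted p, 8 were among the 11 called with the trend removed.

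**Figure D3:**
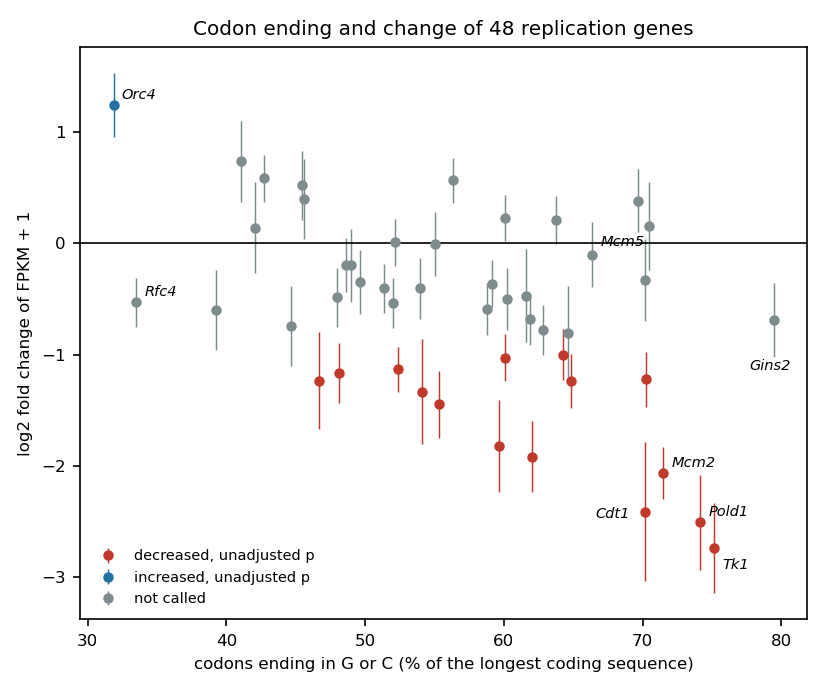
Log2 fold change (*Eef1g*-cKO over control) of the 48 replication genes against the percentage of their codons ending in G or C, with 1 point and its standard error per gene. *Orc4* stands at 31.9% with a fold change of 1.24, *Pold1* at 74.1% with −2.51, and *Mcm5* at 66.3% with −0.10.

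The origin recognition complex binds origins before they are licensed. *Orc4* encodes a subunit of the ATPase family that holds DNA and lies at chr2:48902824-48952902 in RefSeq. *Orc4* had 12.8 and 10.0 FPKM in control and 28.7 and 27.6 FPKM in *Eef1g*-cKO. No control library reached either *Eef1g*-cKO library, and the *Eef1g*-cKO mean was 247% of control. The log2 fold change was 1.24 (SE 0.29, n = 2 per group), with an adjusted p of 0.0557 by limma, 0.00226 by edgeR and 0.0118 by DESeq2. *Orc4* passed at an unadjusted p, and relative to the all-gene median its fold change was 1.47. *Orc1*, an ATPase subunit with the most reads of the complex summed over the libraries, had 32.5 and 46.3 FPKM in control and 26.7 and 34.2 FPKM in *Eef1g*-cKO, and the groups overlapped. *Orc6* had 42.9 and 45.9 FPKM in control and 70.2 and 63.7 FPKM in *Eef1g*-cKO, without overlap, and did not pass (log2 fold change 0.58). *Orc2* lay lower in *Eef1g*-cKO, at 9.74 and 10.1 against 6.27 and 6.19 FPKM, and did not pass. *Orc3* (log2 fold change 0.40) and *Orc5* (0.14) were not called, and both turned below 0 once the codon-ending trend was removed (−0.03 and −0.35). *Orc5* also did so without *Eef1g*-cKO 2 (−0.36).

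Within the complex, the ratio of *Orc4* to *Orc2* RPF abundance was 1.31 and 0.987 in control against 4.58 and 4.45 in *Eef1g*-cKO. The intervals in *Eef1g*-cKO, from 1.84 to 11.4 and from 2.23 to 8.87, rest on 5 and 9 *Orc2* reads. Neither interval reached either control ratio, but that of control 1 ended at 1.71, close to the lower *Eef1g*-cKO bound. The share of *Orc4* in the summed abundance of the 6 subunits was 10.3% and 7.24% in control against 17.6% and 16.5% in *Eef1g*-cKO. The 6 genes summed to 124 and 138 FPKM in control and 163 and 167 FPKM in *Eef1g*-cKO.

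Licensing factors load the helicase. All 3 lay lower in both *Eef1g*-cKO libraries, beside 37.7% of all genes. Of the 3, 1 was called decreased at an adjusted p and 2 at an unadjusted p, beside 4.97% and 16.3%. *Cdc6*, the ATPase that loads the helicase together with CDT1, had 23.1 and 21.1 FPKM in control and 7.60 and 7.30 FPKM in *Eef1g*-cKO. The replicates were close to each other and the groups were well apart. *Cdc6* fell by 1.45 on the log2 scale (SE 0.30, limma adjusted p = 0.0482). Without control 1 the limma adjusted p was 0.259, and without control 2 it was 0.290. *Cdt1*, the loading factor that is destroyed once S phase starts, had 61.3 and 75.2 FPKM in control and 24.5 and 5.59 FPKM in *Eef1g*-cKO, from 12 and 5 reads. The *Eef1g*-cKO libraries differed from each other more than the control libraries did, and both lay below them. Its log2 fold change of −2.41 (SE 0.62) passed in limma at an unadjusted p only (adjusted p = 0.0679), and ran from −3.39 without *Eef1g*-cKO 1 to −1.44 without *Eef1g*-cKO 2. EdgeR and DESeq2 called it at an adjusted p (0.000593 and 0.000931). Both limma fits without an *Eef1g*-cKO library called *Cdt1* at an adjusted p, while it was not called at an unadjusted p without either control library or after thinning.

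*Gmnn*, which encodes geminin, the inhibitor of CDT1, had 125 and 140 FPKM in control and 54.9 and 113 FPKM in *Eef1g*-cKO. The groups did not overlap, though *Eef1g*-cKO 2 came close to control, and *Gmnn* did not pass. Without *Eef1g*-cKO 2 it was called, at a log2 fold change of −1.26 (limma adjusted p = 0.0330). The ratio of *Cdt1* to *Gmnn* was 0.490 and 0.535 in control, 0.446 in *Eef1g*-cKO 1 and 0.0495 in *Eef1g*-cKO 2. Only *Eef1g*-cKO 2 stood apart, since the interval of *Eef1g*-cKO 1 (0.204 to 0.973) held both control ratios.

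The MCM helicase is a ring of 6 related subunits that unwinds the parental strands. All 6 had a log2 fold change below 0, beside 59.1% of all genes, except that *Mcm5* turned positive after centring (0.11), after removal of the codon-ending trend (0.13) and without control 2 (0.26). *Mcm2* had 171 and 235 FPKM in control and 46.4 and 48.0 FPKM in *Eef1g*-cKO. The *Eef1g*-cKO libraries were nearly equal and sat at a mean of 23.3% of control. *Mcm2* fell by 2.06 on the log2 scale (SE 0.23, n = 2 per group, limma adjusted p = 0.0225), which is −1.83 relative to the all-gene median. It was called at an unadjusted p in all 15 alternatives and at an adjusted p in 11 of 15. It was lost without control 1 (limma adjusted p = 0.0563), without control 2 (0.0712), without a prior trend (0.0636) and after thinning (0.113). *Mcm5*, its partner on the other side of the gate through which DNA enters the ring, had 247 and 410 FPKM in control and 315 and 279 FPKM in *Eef1g*-cKO. Here the groups overlapped, and the log2 fold change was −0.10 (SE 0.29).

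*Mcm3* had 294 and 384 FPKM in control and 181 and 155 FPKM in *Eef1g*-cKO, and *Mcm4* had 71.9 and 103 against 33.6 and 42.3 FPKM. Both were lower in each *Eef1g*-cKO library and passed in limma at an unadjusted p only, at log2 fold changes of −1.002 and −1.17. Without control 2 neither was called (log2 fold changes −0.81 and −0.91), and after centring neither was (−0.79 and −0.95). *Mcm3*, which lay at the fold threshold, was called in 7 of 15 alternatives and missed that threshold by edgeR (−0.94), by DESeq2 (−0.96), with a pseudocount of 5 FPKM (−0.99), after thinning (−0.91), without *Eef1g*-cKO 2 (−0.89) and with the codon-ending trend removed (−0.85). *Mcm4* was called at an adjusted p by edgeR (−1.09, adjusted p = 0.00422) and DESeq2 (−1.11, 0.0152), and by limma with a pseudocount of 5 FPKM (0.0452), a mean of at least 5 FPKM (0.0429), the replicate block (0.0295), the codon-ending trend removed (0.0356) and without *Eef1g*-cKO 2 (0.0322). *Mcm6*, at 132 and 176 against 106 and 103 FPKM, and *Mcm7*, at 90.2 and 108 against 74.6 and 78.8 FPKM, did not overlap between groups and did not pass.

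The subunits therefore held unequal shares. *Mcm2* made up 17.0% and 16.6% of the summed abundance of the 6 subunits in control and 6.12% and 6.80% in *Eef1g*-cKO. *Mcm5* made up 24.6% and 29.0% in control against 41.7% and 39.6% in *Eef1g*-cKO. The ratio of *Mcm2* to *Mcm5* was 0.691 and 0.572 in control against 0.147 and 0.172 in *Eef1g*-cKO. The *Eef1g*-cKO intervals, 0.103 to 0.209 and 0.133 to 0.223, lay below those of control, 0.646 to 0.739 and 0.531 to 0.616. Against *Mcm6*, *Mcm2* stood at 1.29 and 1.33 in control against 0.437 and 0.466 in *Eef1g*-cKO. Against *Mcm7* it stood at 1.89 and 2.17 in control against 0.622 and 0.609 in *Eef1g*-cKO. In each of these ratios both *Eef1g*-cKO libraries lay below both control libraries. A ratio within a library shows unequal change and not that a partner stayed the same.

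The promoters of *Mcm2* and *Mcm5* are shown because these partners in 1 ring differed in RPF abundance. Each runs from 250 bases before to 50 bases after the gene's start in RefSeq GRCm38.p6, that of *Mcm2* at chr6:88898731-88899030 on the minus strand and that of *Mcm5* at chr8:75109259-75109558 on the plus strand. Capitals mark the E2F words TTTCCCGC, TTTCGCGC, TTTGCCGC and TTTGGCGC and the word CCAAT, searched on both strands. An E2F match on 1 strand may overlap a match on the other, as in *Mcm5*.
Mcm2 promoter: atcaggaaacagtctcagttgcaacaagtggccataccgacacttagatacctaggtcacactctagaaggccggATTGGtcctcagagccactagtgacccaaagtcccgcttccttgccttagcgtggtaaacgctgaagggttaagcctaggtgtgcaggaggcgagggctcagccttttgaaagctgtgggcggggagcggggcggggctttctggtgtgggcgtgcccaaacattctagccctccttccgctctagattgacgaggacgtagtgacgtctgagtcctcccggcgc
Mcm5 promoter: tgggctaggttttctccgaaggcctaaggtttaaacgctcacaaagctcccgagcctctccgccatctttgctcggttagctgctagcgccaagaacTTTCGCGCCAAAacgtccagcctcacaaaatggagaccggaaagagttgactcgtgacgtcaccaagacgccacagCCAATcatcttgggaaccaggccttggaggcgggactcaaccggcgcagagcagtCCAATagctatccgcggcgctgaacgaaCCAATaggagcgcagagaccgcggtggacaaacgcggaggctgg
The *Mcm5* window held 2 overlapping E2F matches and 3 CCAAT matches, and the *Mcm2* window held 0 E2F matches and 1 CCAAT match. A match is a description of letters, and no match says only that these letters are not in this window.

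Origin firing needs CDC45 and the 4 GINS subunits, which join the MCM ring, and MCM10, which helps to activate it. Of these 6 genes, 1 passed as decreased, at an unadjusted p, beside 16.3% of all genes. *Gins4* had 27.8 and 43.4 FPKM in control and 6.55 and 12.6 FPKM in *Eef1g*-cKO, from 2 and 7 reads. Both *Eef1g*-cKO libraries were well below control. The log2 fold change was −1.82 (SE 0.41, limma adjusted p = 0.0536), and the adjusted p was 0.0262 by edgeR and 0.131 by DESeq2. *Gins4* was not called at an unadjusted p without either control library or after thinning, and it was called at an adjusted p without *Eef1g*-cKO 1 (limma adjusted p = 0.0445) and without *Eef1g*-cKO 2 (0.00458). *Cdc45*, with the most reads here, had 122 and 135 FPKM in control and 167 and 132 FPKM in *Eef1g*-cKO, and the groups overlapped.

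*Gins1* had 49.4 and 49.2 FPKM in control and 57.8 and 31.7 FPKM in *Eef1g*-cKO, on both sides of control. The ratio of *Gins4* to *Gins1* was 0.562 and 0.882 in control against 0.113 and 0.397 in *Eef1g*-cKO, with *Eef1g*-cKO intervals of 0.0289 to 0.444 and 0.166 to 0.946. Both ratios were lower than in control, but the interval of *Eef1g*-cKO 2 held the ratios of both controls. *Mcm10* had 17.9 and 18.6 FPKM in control and 20.5 and 16.1 FPKM in *Eef1g*-cKO, at a log2 fold change of −0.01. The sign of *Mcm10* and of *Gins1* (−0.20) flipped after centring, to 0.21 and 0.02. *Gins2* (−0.69) and *Gins3* (−0.47), the remaining subunits, did not pass, with 2 and 5 reads each in *Eef1g*-cKO.

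Polymerase alpha-primase makes the RNA-DNA primers. *Pola2*, its regulatory subunit, had 47.7 and 57.1 FPKM in control and 20.2 and 23.0 FPKM in *Eef1g*-cKO. The spread within each group was small beside the distance between groups. *Pola2* fell by 1.24 on the log2 scale (SE 0.24, limma adjusted p = 0.0437). It was called at an adjusted p in 7 of 15 alternatives. That call was lost with a pseudocount of 0.1 FPKM, with no filter, after centring, without a prior trend and after thinning. The losses also included the fits without control 1, control 2 and *Eef1g*-cKO 1, at log2 fold changes of −1.36, −1.11 and −1.15. *Pola1*, the catalytic subunit, had 6.56 and 5.54 FPKM in control and 10.9 and 10.5 FPKM in *Eef1g*-cKO, higher in each *Eef1g*-cKO library, and did not pass (log2 fold change 0.73). The ratio of *Pola2* to *Pola1* was 7.28 and 10.3 in control against 1.86 and 2.19 in *Eef1g*-cKO. The *Eef1g*-cKO intervals, 0.879 to 3.95 and 1.26 to 3.79, lay below the control intervals, which began at 5.75 and 7.40. *Prim1*, the primase catalytic subunit, had 60.2 and 55.1 FPKM in control and 58.3 and 57.6 FPKM in *Eef1g*-cKO, with both values inside the control range. *Prim2*, its partner, had 59.8 and 68.0 FPKM in control and 47.5 and 37.2 FPKM in *Eef1g*-cKO and was not called, since its log2 fold change was −0.59.

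Polymerase delta copies the lagging strand. *Pold1*, its catalytic subunit, had 99.2 and 160 FPKM in control and 14.3 and 31.5 FPKM in *Eef1g*-cKO, from 842 and 758 reads against 11 and 44. The libraries of each group differed, but both *Eef1g*-cKO libraries lay far below control, at a mean of 17.7%. *Pold1* fell by 2.51 on the log2 scale (SE 0.43, n = 2 per group, limma adjusted p = 0.0355), which is −2.27 relative to the all-gene median. The limma adjusted p was 0.261 without control 1 and 0.345 without control 2, and without control 2 the unadjusted rule was missed as well. *Pold2* had 29.1 and 55.6 FPKM in control and 27.7 and 36.5 FPKM in *Eef1g*-cKO, and *Pold3* had 22.3 and 24.3 against 16.4 and 16.3 FPKM. Neither of these accessory subunits passed, and *Pold2* overlapped between groups. The sign of *Pold2* (−0.33) flipped without control 2 (0.13) and once the codon-ending trend was removed (0.01). The ratio of *Pold1* to *Pold2* was 3.41 and 2.87 in control against 0.517 and 0.862 in *Eef1g*-cKO, and that to *Pold3* was 4.45 and 6.58 against 0.877 and 1.93. In both ratios the *Eef1g*-cKO intervals lay below the control intervals.

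The *Pold1* promoter is shown because *Pold1* is among the members with the lowest log2 fold changes, beside a polymerase partner that did not pass. The window lies at chr7:44548766-44549065 on the minus strand of RefSeq GRCm38.p6, and capitals mark the same words.
Pold1 promoter: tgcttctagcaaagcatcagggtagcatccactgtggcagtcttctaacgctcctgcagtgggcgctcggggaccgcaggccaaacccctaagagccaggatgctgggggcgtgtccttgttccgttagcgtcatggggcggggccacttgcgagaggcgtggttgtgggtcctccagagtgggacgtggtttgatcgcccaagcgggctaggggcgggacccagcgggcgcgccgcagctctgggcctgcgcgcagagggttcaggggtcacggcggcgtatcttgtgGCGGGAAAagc
It held 1 E2F match, as the reverse complement of TTTCCCGC near the end of the printed window, and 0 CCAAT matches.

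Polymerase epsilon copies the leading strand, and 3 of its 4 subunits had higher values in both *Eef1g*-cKO libraries without passing, beside 24.6% of all genes that lay higher in both. *Pole*, the catalytic subunit, had 61.5 and 69.9 FPKM in control and 74.6 and 79.4 FPKM in *Eef1g*-cKO. *Pole3* had 106 and 175 FPKM in control and 179 and 176 FPKM in *Eef1g*-cKO, and *Pole4* had 54.3 and 54.2 against 81.7 and 79.6 FPKM. The groups did not overlap in these 3 genes, although *Pole3* in control 2 nearly reached *Eef1g*-cKO, and the log2 fold changes were 0.23, 0.38 and 0.56. *Pole2*, an accessory subunit, had 9.28 and 17.0 FPKM in control and 5.27 and 4.34 FPKM in *Eef1g*-cKO, from 2 and 3 reads. Its read ratio was 0.387 (interval 0.122 to 0.942), and it passed at an unadjusted p only (adjusted p = 0.124 by limma, 0.184 by edgeR and 0.429 by DESeq2). Without control 1 or control 2 it was not called, and its log2 fold change ran from −1.64 to −0.83 over the fits without 1 library. The ratio of *Pold1* to *Pole*, the catalytic subunits of the lagging and leading strand polymerases, was 1.61 and 2.29 in control against 0.192 and 0.397 in *Eef1g*-cKO. Both *Eef1g*-cKO intervals (0.105 to 0.354 and 0.288 to 0.547) lay below both control intervals (1.47 to 1.76 and 2.06 to 2.54). The 4 epsilon genes summed to 231 and 316 FPKM in control and 340 and 339 FPKM in *Eef1g*-cKO, and the 3 delta genes to 151 and 240 against 58.5 and 84.4 FPKM.

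**Figure D4:**
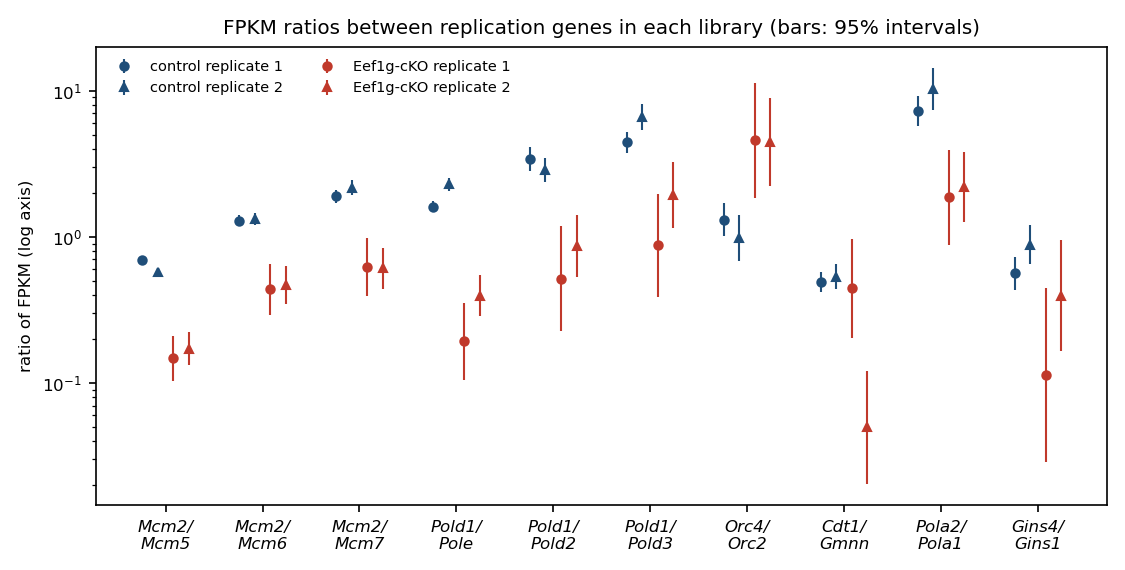
Ratio of RPF abundance between members of a complex or of paired polymerases in each of the 4 libraries (log axis), with 95% counting intervals. The ratio of *Mcm2* to *Mcm5* stands at 0.147 and 0.172 in *Eef1g*-cKO against 0.691 and 0.572 in control, and that of *Orc4* to *Orc2* stands at 4.58 and 4.45 in *Eef1g*-cKO against 1.31 and 0.987.

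The sliding clamp holds polymerases on DNA, and the clamp loader places it there. None of these 6 genes was called by limma at an adjusted or unadjusted p, nor at an adjusted p by edgeR or DESeq2. Of all genes, limma called 4.97% decreased and 2.87% increased at an adjusted p, and 16.3% and 7.32% at an unadjusted p. *Pcna*, the clamp, had 73.6 and 92.3 FPKM in control and 63.8 and 60.3 FPKM in *Eef1g*-cKO, without overlap. *Rfc1*, the large loader subunit, had the most reads, at 40.2 and 33.7 FPKM in control and 34.1 and 30.1 FPKM in *Eef1g*-cKO. Its log2 fold change of −0.20 became 0.02 after centring. *Rfc3*, *Rfc4* and *Rfc5* also lay lower in both *Eef1g*-cKO libraries, at log2 fold changes of −0.40, −0.53 and −0.80. With *Pcna*, 4 of the 6 genes did so, beside 37.7% of all genes. *Rfc4* was called once the codon-ending trend was removed (−1.16). *Rfc5* had 3 reads in each *Eef1g*-cKO library, and its read ratio of 0.517 had an interval of 0.183 to 1.18. *Rfc2* overlapped between groups, and its log2 fold change of 0.16 turned below 0 without control 1 (−0.10) and without *Eef1g*-cKO 2 (−0.31).

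Okazaki fragments are trimmed by the flap nuclease FEN1 and joined by DNA ligase 1. Both genes fell by limma at an adjusted p, beside 4.97% of all genes. *Fen1* had 156 and 228 FPKM in control and 80.4 and 80.5 FPKM in *Eef1g*-cKO. *Lig1* had 188 and 219 FPKM in control and 107 and 91.9 FPKM in *Eef1g*-cKO. In each gene both *Eef1g*-cKO libraries lay well below control, at means of 41.9% and 48.8%. *Fen1* fell by 1.22 on the log2 scale (SE 0.25, limma adjusted p = 0.0457) and *Lig1* by 1.03 (SE 0.21, limma adjusted p = 0.0456). *Lig1* stood just beyond the fold threshold, and edgeR and DESeq2 placed it short of that threshold, at −0.96 and −0.98 (adjusted p = 0.00335 and 0.00287). Without control 1, control 2 and *Eef1g*-cKO 1, the limma adjusted p of *Fen1* was 0.0803, 0.157 and 0.0604, and that of *Lig1* was 0.196, 0.259 and 0.0643. *Lig1* also missed the fold threshold without *Eef1g*-cKO 2 (−0.92), and both missed it without control 2 (−0.95 for *Fen1* and −0.92 for *Lig1*). The adjusted call held in 6 of 15 alternatives for *Fen1* and in 3 of 15 for *Lig1*. Both were also lost at an adjusted p with a pseudocount of 0.1 FPKM, no filter, centring, no prior trend and thinning. With the codon-ending trend removed, *Fen1* was not called by either rule (−0.88, limma adjusted p = 0.0623).

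RPA coats single-stranded DNA, and none of its 3 genes was called by limma at an adjusted or unadjusted p, nor at an adjusted p by edgeR or DESeq2. The limma shares over all genes were 4.97% decreased and 2.87% increased at an adjusted p, and 16.3% and 7.32% at an unadjusted p. *Rpa2*, with the most reads, had 141 and 183 FPKM in control and 108 and 92.2 FPKM in *Eef1g*-cKO. *Rpa1*, the large subunit, had 51.9 and 70.2 FPKM in control and 35.9 and 49.7 FPKM in *Eef1g*-cKO, and *Rpa3*, the small one, had 37.9 and 30.6 against 63.0 and 38.4 FPKM. None of the 3 overlapped between groups, with *Rpa1* and *Rpa2* lower and *Rpa3* slightly higher in *Eef1g*-cKO, beside 37.7% and 24.6% of all genes.

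Nucleotide synthesis supplies the deoxynucleotides, and all 5 of its genes lay lower in both *Eef1g*-cKO libraries, beside 37.7% of all genes. Of the 5, 3 fell at an adjusted p and 4 passed as decreased at an unadjusted p, beside 4.97% and 16.3%. *Dut*, whose enzyme removes dUTP and so keeps uracil out of DNA, had 99.7 and 181 FPKM in control and 35.6 and 34.2 FPKM in *Eef1g*-cKO. The control libraries differed and the *Eef1g*-cKO libraries were alike, well below both. *Dut* fell by 1.92 on the log2 scale (SE 0.32, limma adjusted p = 0.0352), with a limma adjusted p of 0.0591 without control 1 and 0.128 without control 2. *Rrm1*, the large subunit of ribonucleotide reductase, had 212 and 221 FPKM in control and 90.5 and 107 FPKM in *Eef1g*-cKO. The replicates of each group were close. *Rrm1* fell by 1.13 (SE 0.20, limma adjusted p = 0.0375), and the limma adjusted p was 0.200 without control 1, 0.237 without control 2 and 0.0895 without *Eef1g*-cKO 1. *Rrm2*, the small subunit, had 54.2 and 59.3 FPKM in control and 30.7 and 34.9 FPKM in *Eef1g*-cKO, without overlap, and its log2 fold change of −0.77 stayed inside the fold threshold.

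*Tk1*, the thymidine kinase of S phase, had 20.3 and 23.7 FPKM in control and 3.26 and 1.79 FPKM in *Eef1g*-cKO, from 69 and 45 reads against 1 and 1. Every *Eef1g*-cKO value was far below control but rested on a single read. The read ratio was 0.107 (interval 0.0128 to 0.396), and limma called it decreased (adjusted p = 0.0307). DESeq2 did not call it (adjusted p = 0.0854), and edgeR did (0.00871). The limma adjusted p was 0.237 without control 1 and 0.292 without control 2. *Tyms*, which makes thymidylate, had 6.25 and 5.69 FPKM in control and 2.35 and 1.29 FPKM in *Eef1g*-cKO, from 2 reads in each. Its read ratio was 0.275 (interval 0.0733 to 0.729), and it passed at an unadjusted p only (adjusted p = 0.126 by limma, 0.0940 by edgeR and 0.324 by DESeq2). It was not called without control 1, without control 2 or without *Eef1g*-cKO 2, and its log2 fold change ran from −1.61 to −1.06 over the fits without 1 library. The 5 genes together summed to 393 and 491 FPKM in control and 162 and 179 FPKM in *Eef1g*-cKO.

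**Figure D5:**
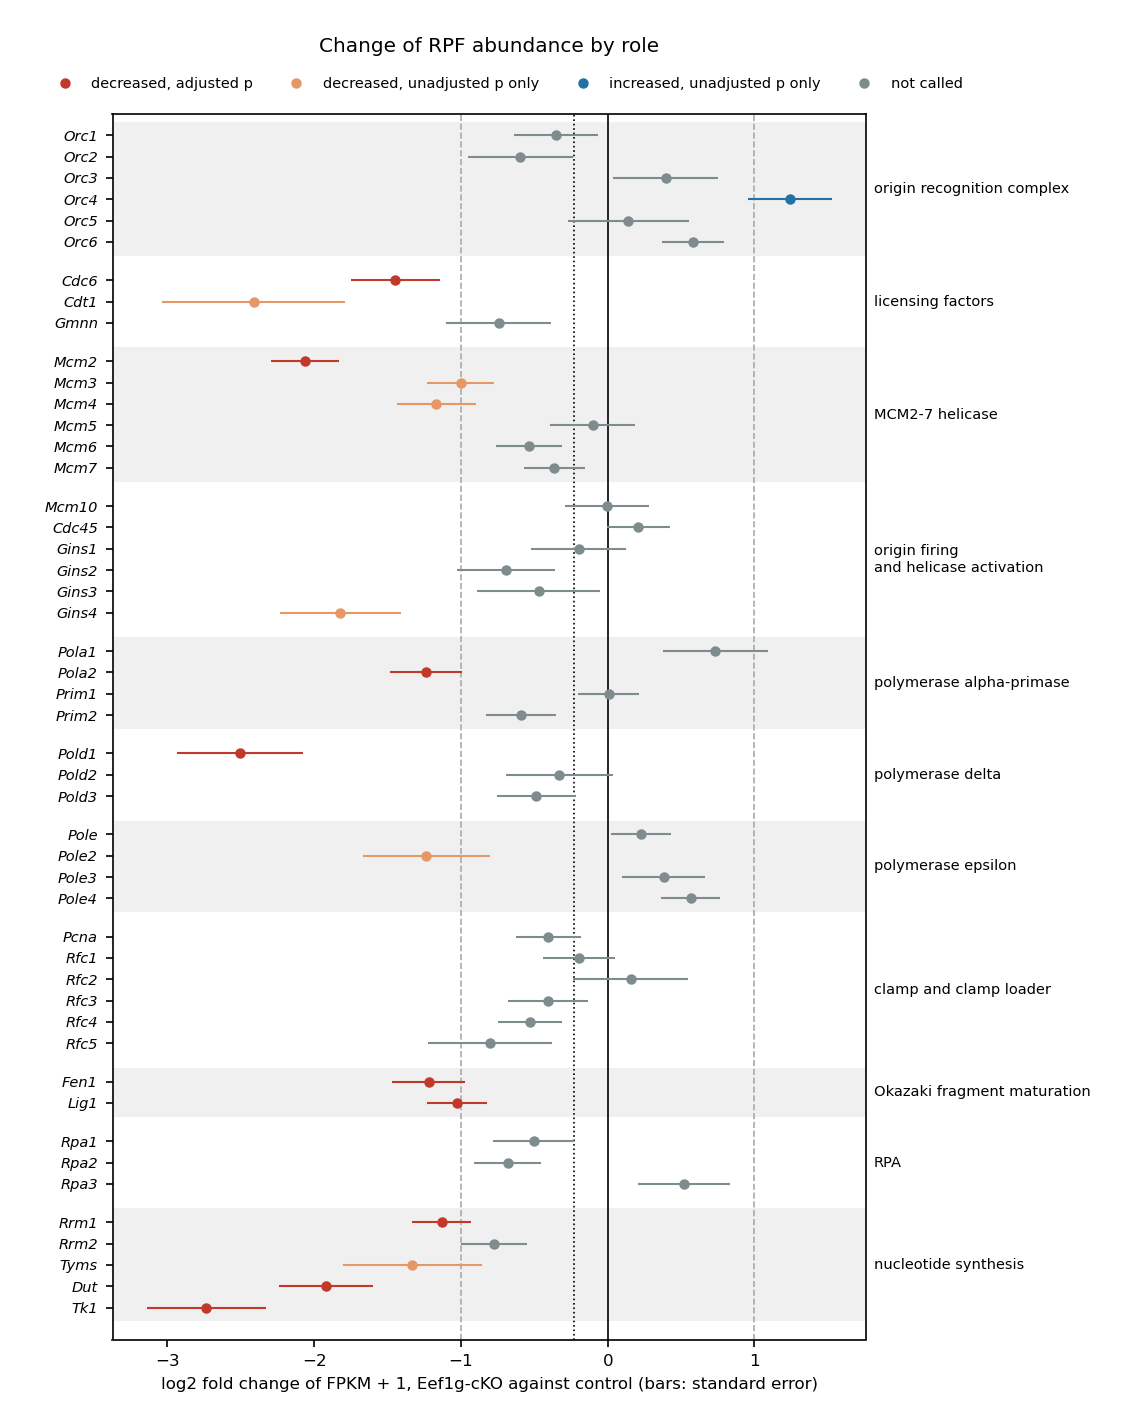
Log2 fold change (*Eef1g*-cKO over control, limma) of the 48 replication genes by role, with standard errors, beside the all-gene median of −0.23. Decreases called at an adjusted p are spread over licensing, MCM, polymerase alpha, polymerase delta, Okazaki fragment and nucleotide genes, and *Orc4* stands at 1.24.

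Promoters could be compared for 40 of the 48 genes, with 49 promoter windows in all. An E2F word was present in 34.7% of these windows, against 2.26% of all 32851 mouse promoters and 4.19% of the promoters of genes in the deposited table. The word CCAAT was present in 51.0% of them, against 37.4% of all promoters. Among genes with a promoter, an E2F word stood in 6 of 13 called decreased at an unadjusted p and in 10 of the other 27. CCAAT stood in 3 of 13 called decreased and in 20 of the other 27. These splits were made after the fold changes were known and are given as counts with no test.

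Other genes of replication and nucleotide synthesis were taken from a list of 102, of which 100 were in the table and 96 were tested. Limma called 11 of the 96 decreased and 0 increased at an adjusted p, beside 4.97% and 2.87% of all genes. At an unadjusted p it called 18 decreased, beside 16.3%, and 4 increased (*Lin54*, *Ccne2*, *Rbl1* and *Dtymk*), beside 7.32%, so these counts were near or below the background. At an adjusted p, edgeR called 14 of 87 decreased and 6 increased, beside 11.2% and 8.75%. DESeq2 called 12 of 100 decreased and 4 increased, beside 3.89% and 4.33%, with genes lacking a DESeq2 adjusted p counted on both sides. The 96 genes had a median log2 fold change of −0.28, close to the all-gene −0.23. Without control 1 or control 2, limma called 0 decreased at an adjusted p, and without *Eef1g*-cKO 2 it called 17 decreased and 3 increased, while the whole table had 1432 decreased and 537 increased in that fit.

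Among other nucleotide synthesis genes, 4 of 32 fell at an adjusted p, beside 4.97% of all genes. At an unadjusted p, 10 passed as decreased and 1 as increased, beside 16.3% and 7.32%. *Cad*, which starts pyrimidine synthesis, had 88.2 and 111 FPKM in control and 20.7 and 25.1 FPKM in *Eef1g*-cKO. *Shmt1*, which feeds carbon into thymidylate synthesis, had 85.0 and 110 FPKM in control and 17.3 and 21.4 FPKM in *Eef1g*-cKO. *Atic*, of purine synthesis, had 74.0 and 77.2 against 27.4 and 27.2 FPKM. All 3 fell without overlap between groups, with log2 fold changes of −2.07, −2.27 and −1.44, and so did *Nme2*, a nucleoside diphosphate kinase (−1.67). *Dtymk*, which phosphorylates thymidylate, was higher, at 28.6 and 33.1 FPKM in control and 58.0 and 78.6 FPKM in *Eef1g*-cKO. It passed in limma at an unadjusted p only (adjusted p = 0.0551). EdgeR called it at an adjusted p (0.0132), as did limma after centring (0.0385), and DESeq2 did not (0.0667). Over the 32 genes the median was −0.70 on the log2 scale.

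At the fork, 4 of 19 accessory genes fell at an adjusted p, beside the 4.97% of all genes that also stands behind the other counts here. *Chtf18*, of an alternative clamp loader, had 84.4 and 120 FPKM in control and 17.3 and 22.9 FPKM in *Eef1g*-cKO. *Rnaseh2a* and *Rnaseh2c*, subunits of the enzyme that removes ribonucleotides from DNA, both fell. *Rnaseh2c* had 107 and 198 FPKM in control and 27.7 and 45.5 FPKM in *Eef1g*-cKO, and *Rnaseh2a* had 140 and 71 reads in control against 0 and 3, a read ratio of 0.0869 (interval 0.0178 to 0.258). Among chromatin genes of the fork, 2 of 12 fell. *Dnmt1*, the maintenance DNA methyltransferase, had 139 and 193 FPKM in control and 37.5 and 49.8 FPKM in *Eef1g*-cKO, and *Tonsl*, which binds new histones behind forks, had 32.7 and 32.8 against 13.8 and 8.74 FPKM. Of the 13 other licensing and firing genes, 1 fell, *Wdhd1*, which links the helicase to polymerase alpha, at 102 and 104 against 38.5 and 35.8 FPKM.

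Of the 20 E2F and cyclin regulators tested, limma called 0 decreased at an adjusted or an unadjusted p, beside 4.97% and 16.3% of all genes, and 3 passed as increased at an unadjusted p, beside 7.32%. EdgeR and DESeq2 also called 0 of them decreased at an adjusted p. As increased at an adjusted p, edgeR called *E2f1*, *Lin54*, *Ccne2* and *Rbl1*, beside 8.75% of the genes it tested. DESeq2 called *Lin54*, *Ccne2* and *Rbl1*, beside 4.33%. *E2f1* had 8.20 and 3.26 FPKM in control and 37.5 and 7.12 FPKM in *Eef1g*-cKO, so its groups overlapped. *Ccne2*, a cyclin of S phase entry, had 11.9 and 11.0 FPKM in control and 29.1 and 25.9 FPKM in *Eef1g*-cKO. *Rbl1*, a pocket protein that binds E2F factors, had 10.6 and 9.21 FPKM in control and 23.1 and 22.2 FPKM in *Eef1g*-cKO, and *Lin54* had 3.75 and 3.51 against 17.0 and 7.26 FPKM. In these 3 genes the groups did not overlap, and the median over the whole list was 0.06 on the log2 scale.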

How the data were processed

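RPF abundance was measured by Ribo-seq in 2 control and 2 *Eef1g*-cKO libraries. The authors deposited 1 table with FPKM per gene and library, which is reads per kilobase of a gene in every 1000000 gene reads. It also holds a signal column per library, which the authors made by dividing reads per gene by a size factor. Whole reads were recovered from these (100% of values whole within 0.001). The deposited gene length (in bases, unit other) was used for the FPKM. Further columns hold the authors' own comparison of the groups (fold change, its error, statistic and p-values) and were not used. The submitters' processing notes name cutadapt, Bowtie and STAR and the builds mm10 and hg38, with no versions or roles, and state no read counter or annotation.

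Log2(FPKM + 1) was fitted, for the 10475 genes that averaged 1 FPKM or more across all 4 libraries, with limma 3.58.1 in R 4.3.3 (lmFit, eBayes with a trend), with Benjamini-Hochberg adjustment over all of them. A call needed p under 0.05, adjusted or unadjusted, together with a fold change beyond 1 on the log2 scale in either direction. Alternatives were pseudocounts of 0.1 and 5 FPKM, no filter, a mean of at least 5 FPKM, centring, a prior variance without a trend, edgeR 4.0.16 and DESeq2 1.42.0 on recovered reads, thinning to the shallowest library, leaving out each library, and replicate number as a block. Removal of the trend with codon-ending GC content in each library was chosen after seeing the data.

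The members and the lists of related and marker genes were chosen with earlier results of these data known. Values in every library are given for members called by either rule, for the gene with the most reads over the libraries in each role and for compared members of a complex, and related genes called at an adjusted p are named up to 10 in each direction. Others named, such as *Dtymk*, *Ccne2*, *Rbl1* and *Lin54*, were chosen after their values were seen. Intervals of read ratios between groups are exact (Clopper-Pearson), and those of ratios between genes in a library are Wilson intervals. Coding sequences came from GENCODE M21, promoters from RefSeq GRCm38.p6 and the position of *Orc4* from RefSeq. Figures and tables used Python 3.11.15, numpy 2.4.6, scipy 1.17.1, pandas 2.3.3 and matplotlib 3.10.9.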

Additional observations from a re-analysis of the deposited data

How the results depend on the processing

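Results were recomputed under 15 alternatives, with lone libraries assumed to vary like the other group. Of the fold changes of single genes under these alternatives, 604 kept their direction and their side of the rule at an adjusted p. Another 63 were weaker, 30 were stronger and 22 reversed, and the cause of the changes was not tested. The 604 include genes that were called neither in the main fit nor in the alternative. For the 9 decreases at an adjusted p, the call held in 3 (*Lig1*) to 11 (*Mcm2*) of the 15 alternatives. Some of the 604 crossed the fold threshold and lost a call at an unadjusted p, such as *Mcm3* by edgeR. The 9 replication genes decreased at an adjusted p became 1 with a pseudocount of 0.1 FPKM, 5 with no filter, 4 after centring, and 0 without a prior trend and after thinning, with 0 to 12 when 1 library was left out. The 15 at an unadjusted p became 9 after centring and 6 to 16 with 1 library left out. The 0 increased at an adjusted p became 1, *Orc4*, with a pseudocount of 5 FPKM, a mean of at least 5 FPKM, centring, edgeR and DESeq2, and 0 to 1 with 1 library left out. The 1 increased at an unadjusted p became 2 after thinning and 0 with the codon-ending trend removed, and was 1 in each fit without a library.

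The 11 related genes decreased became 2 with a pseudocount of 0.1 FPKM, 7 with no filter, and 0 without a prior trend and after thinning, with 0 to 17 when 1 library was left out. The 0 related genes increased became 1 with a pseudocount of 5 FPKM, 3 with a mean of at least 5 FPKM, 5 after centring, 6 by edgeR, 4 by DESeq2, 1 with a replicate block and 2 with the codon-ending trend removed, with 0 to 3 when 1 library was left out. The median log2 fold change of −0.52 became −0.44 with a pseudocount of 5 FPKM, −0.30 after centring, −0.44 by edgeR and −0.64 with the codon-ending trend removed, and ran from −0.65 to −0.42 with 1 library left out. With the replicate block, 13 replication genes and 13 related genes were decreased at an adjusted p, and 822 genes of the whole table against 521 without it. Whether the replicate numbers pair the samples cannot be decided here. The differences between replicates correlated at −0.00804 over genes in the 2 pairs. The *Eef1g*-cKO libraries had medians of only 5 and 8 reads per gene, where counting error can hide a pairing.

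Of the log2 fold changes that changed sign, none was called in either direction. After centring they were 0.11 for *Mcm5*, 0.21 for *Mcm10*, 0.0187 for *Rfc1* and 0.0155 for *Gins1*. With the codon-ending trend removed they were 0.13 for *Mcm5*, −0.26 for *Prim1*, 0.0119 for *Pold2*, −0.0298 for *Orc3* and −0.35 for *Orc5*. *Mcm10* was at 0.0535 by edgeR, 0.0443 by DESeq2 and 0.14 after thinning. Without 1 library, the ranges were −0.47 to 0.26 for *Mcm5*, −0.17 to 0.16 for *Mcm10*, −0.0560 to 0.0697 for *Prim1*, −0.79 to 0.13 for *Pold2*, −0.31 to 0.63 for *Rfc2*, −0.62 to 0.22 for *Gins1* and −0.36 to 0.64 for *Orc5*.

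Depth in *Eef1g*-cKO limits what can be read from single genes. *Tk1*, *Tyms*, *Pole2* and *Rfc5* had 3 reads or fewer in each *Eef1g*-cKO library, and *Tyms* was not fitted at a mean of at least 5 FPKM. With 2 libraries per group, cell composition, RNA per cell and ribosomes per RNA were measured together. Leaving out control 2 moved the median log2 fold change of the replication genes to −0.42.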
